A study of Mus musculus with 7 samples.

Results

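The genes described here are the regulators of the hypoxia-inducible factors (HIFs) and a set of hypoxia targets outside glycolysis, 39 genes chosen by name. They were chosen with earlier results of these data known. The cells were ILC2s, innate lymphocytes of mucosal tissues that release type 2 cytokines and carry no rearranged antigen receptor. Of the 39 genes, 9 encode HIF subunits or proteins that sense oxygen and mark HIF for destruction, and 30 are targets. All 39 had a probe on the array, out of 39429 probes, and 38 were bright enough to test among 25370 tested genes. Ppp1r3c, which encodes a glycogen-targeting subunit of protein phosphatase 1, was well above background on none of the 7 arrays and has no further value here.

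The wild-type group held ILC2s of Gfi1+/+ mice, and the knockout group held ILC2s of Gfi1GFP/GFP mice, called Gfi1 knockout below, in which a GFP cassette inserted at the Gfi1 locus removes the function of this transcriptional repressor and reports its promoter's activity. The insertion is germline and not limited to ILC2s. All mice of both groups had received IL-25 once a day for 4 days, and Lin-/Sca-1+/ICOS+/CD127+/c-Kit+ cells were sorted from mesenteric lymph nodes on day 5 and kept for 6 days in medium with IL-7 at 10 ng/ml and with IL-2 and IL-25, each at 50 ng/ml. Each of the 4 wild-type samples pooled 3 mice and each of the 3 knockout samples pooled 6 mice, so that genotype and pool size cannot be told apart. The age of the mice is not given in the sources used here. On each 2-colour array the sample was labelled red (Cy5) and a commercial universal mouse reference RNA green (Cy3), without a dye swap. Levels below are log2 ratios of sample over reference, and differences are knockout minus wild type on that log2 scale.

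HIFs are transcription factors made of an oxygen-regulated alpha subunit and the stable partner ARNT. In oxygen, the EGLN prolyl hydroxylases modify the alpha subunit, the VHL ubiquitin ligase then has it degraded, and the asparagine hydroxylase encoded by Hif1an blocks its transactivation, so HIF is controlled largely at the protein level. In low oxygen, or where cytokine and mTOR signals raise HIF in activated lymphocytes, the complex binds short elements with the core RCGTG and turns on genes for oxygen supply, mitochondrial turnover, matrix and pH control, along with Egln1 and Egln3, which feed back on HIF.

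The core was looked for as ACGTG or GCGTG, on both strands, in RefSeq promoters of build GRCm38.p6 (250 bases before to 50 bases after a start). The table matched 31 of the 39 genes. Promoters upstream of transcribed sequence are printed for 3 of the genes with large falls in the knockout (Egln3, Ero1a and P4ha2), for Bnip3, a mitophagy receptor gene with a cluster of matches, and for Egln2, which did not change detectably, to set beside Egln3. They were chosen after their values were seen, among promoters that no gene of the RefSeq table overlaps. Each runs 5′ to 3′ on the gene's strand, covers the 250 bases before the start and has the core in capitals.
Egln3: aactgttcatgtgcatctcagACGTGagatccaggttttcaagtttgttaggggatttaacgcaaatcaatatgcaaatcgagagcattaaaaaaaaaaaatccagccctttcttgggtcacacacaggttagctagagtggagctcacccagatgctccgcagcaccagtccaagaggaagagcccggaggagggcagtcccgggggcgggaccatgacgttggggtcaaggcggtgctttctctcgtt
Ero1a: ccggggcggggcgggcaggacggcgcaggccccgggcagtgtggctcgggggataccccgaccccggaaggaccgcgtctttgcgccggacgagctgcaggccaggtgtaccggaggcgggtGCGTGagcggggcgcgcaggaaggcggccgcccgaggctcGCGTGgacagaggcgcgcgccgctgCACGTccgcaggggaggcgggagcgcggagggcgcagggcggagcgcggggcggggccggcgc
P4ha2: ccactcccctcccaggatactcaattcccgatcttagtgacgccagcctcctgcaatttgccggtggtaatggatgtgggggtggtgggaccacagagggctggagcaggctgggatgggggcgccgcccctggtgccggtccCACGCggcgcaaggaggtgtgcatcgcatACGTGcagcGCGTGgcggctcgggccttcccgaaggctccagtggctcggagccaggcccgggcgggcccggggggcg
Bnip3: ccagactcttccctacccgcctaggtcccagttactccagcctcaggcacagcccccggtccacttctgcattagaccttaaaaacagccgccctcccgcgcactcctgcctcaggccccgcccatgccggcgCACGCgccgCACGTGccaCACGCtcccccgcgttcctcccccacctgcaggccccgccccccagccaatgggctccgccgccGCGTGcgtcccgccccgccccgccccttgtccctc
Egln2: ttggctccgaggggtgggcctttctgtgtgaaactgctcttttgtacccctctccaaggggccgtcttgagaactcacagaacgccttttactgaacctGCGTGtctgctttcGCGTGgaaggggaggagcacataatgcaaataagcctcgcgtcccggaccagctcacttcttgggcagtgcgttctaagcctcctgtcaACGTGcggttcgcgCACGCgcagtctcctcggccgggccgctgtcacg
They lie at chr12:54203875-54204124 (minus strand), chr14:45318573-45318822 (minus strand), chr11:54100674-54100923 (plus strand), chr7:138909507-138909756 (minus strand) and chr7:27166803-27167052 (minus strand), in that order. The printed stretches hold 1, 3, 3, 5 and 4 matches, where CACGTG, read on both strands, counts as 2 overlapping matches. Egln2 thus holds more matches than Egln3 in this window. Over the 31 matched genes, 27 (87.1%) had a match in at least 1 listed promoter, against 46.7% of all 27025 genes in the table. The core contains a CpG, and the members' promoters were richer in CpG, with a median of 25 per promoter against 7. Among promoters with at least 20 CpG, 24 of 26 member promoters (92.3%) and 73.6% of all promoters held a match. A match was present for 15 of 17 genes that fell in the knockout (88.2%) and for 11 of 13 that were not called (84.6%), so its presence in this window did not separate them. These counts describe letters in a window and show no binding.

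A gene was called where limma's moderated test gave an adjusted p under 0.05, after Benjamini-Hochberg adjustment over all tested genes. Knockout ILC2s had lower levels of 23 of the 38 tested members, and none was called higher. As the members were chosen with earlier results of these data known, the counts describe this list and do not test it. The falls reached 5.91-fold for Egln3 and 5.53-fold for Ero1a, and 10 of the 23 were at least 2-fold. Over all tested genes 4.23% were called lower, 3.27% higher and 7.50% in either direction, and 0.721% were called at least 2-fold lower. At an unadjusted p under 0.05, 29 members were lower and again 0 were higher. The share of all tested genes at this unadjusted threshold, which is used again below, is not given here. The median difference of the members was -0.66, beside -0.01 over all tested genes, and 33 members had a difference below 0, as did 54.0% of all genes. Among the 9 regulators 4 fell, with a median of -0.43, and among the 29 tested targets 19 fell, with a median of -0.76. The knockout arrays lay wholly below the wild-type arrays for 28 members and wholly above for 0, where 10.2% of all tested genes lay below and 8.07% above. RNA from fewer cells of a kind and less RNA per cell cannot be told apart in these bulk samples.

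Between 67.4% and 80.9% of probes were well above background in the sample channel, and log ratios correlated at 0.979 to 0.989 within the wild type, 0.969 to 0.980 within the knockout and 0.942 to 0.969 between groups, over genes. The single tested Gfi1 probe read 4.77-fold higher on the knockout arrays (adjusted p = 1.63e-05). Its place relative to the cassette is not known here, so it checks no label. The arrays lay on 3 slides: wild-type array 4 and knockout array 1 on slide 1, wild-type array 1 and knockout arrays 2 and 3 on slide 2, and wild-type arrays 2 and 3 on slide 3. Slide 3 held no knockout array, so genotype and slide were partly confounded. With slide as a fixed block, wild-type arrays 2 and 3 therefore add nothing to the estimated difference, which rests on fewer arrays. Under that block 11 of the 23 calls held (0.966% of all genes were then called lower), and the other 12 had adjusted p from 0.0558 to 0.316. The share of all genes called lower under the other settings was 2.96% in the scanner's log ratio and 2.96% in the series table (21 members each), 3.74% with a smaller offset (23), 2.83% under median centring (20) and 3.63% in the sample channel alone (18). It was 3.20% without a filter on dim probes (23), 4.77% among genes above background on every array (23), 4.22% over the mean of probes (24), 4.05% with no spot left out (23), 3.95% with a trended variance prior (23), 4.66% with slide as a random block (24) and 2.35% with the replicate number as a block (18). Without wild-type arrays 1 to 4 in turn it was 3.50%, 3.02%, 2.98% and 2.92% (22, 20, 19 and 20 members), without knockout arrays 1 to 3 it was 4.01%, 2.90% and 3.50% (22, 17 and 19), and with wild-type array 4 and knockout array 3 both left out 2.58% (18).

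The 11 members still called with slide as a block were Egln3, Vegfa, Stc2, Ankrd37, Ero1a, P4ha2, Plod2, Loxl2, Bnip3l, Hilpda and Car9, and the same 11 were called under each of the 22 alternative settings tried. These settings were not all independent. Quantile normalization of average intensities between arrays leaves the log ratios unchanged, and the series table repeats the scanner's log ratio. In every called member the knockout arrays lay wholly below the wild-type arrays, which fixed the sign within slides 1 and 2 in advance. The median difference of the 38 was -0.49 within slide 1 and -0.51 within slide 2. Slide 1 held a single array of each group.

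All 12 listed ILC2 markers were tested. Their summed sample signal, on a log2 scale, ran from 19.50 to 19.97 on the wild-type and from 18.91 to 19.29 on the knockout arrays, with 4 called lower (Gata3, Il1rl1, Ly6a and Areg) and 1 higher (Il17rb). Among the ILC3 markers reported here Il17a and Ccr6 were called higher (adjusted p = 1.39e-05 and 0.0259), with group means of 0.64 and 6.26 for Il17a and -0.38 and 0.47 for Ccr6 in the wild type and the knockout, and Il22 and Il23r were not (0.493 and 0.0628). No T, B, NK or myeloid cell marker was called (0 of 8, 5, 4 and 6 tested). At an unadjusted p under 0.05, 3 T cell, 1 NK cell and 1 myeloid marker were higher and 0 of these were lower. T cell sums were 12.74 to 13.58 and 12.79 to 13.98, NK cell sums 16.20 to 17.67 and 17.27 to 17.68, B cell sums 13.96 to 14.25 and 13.75 to 14.03, and myeloid sums 11.53 to 11.81 and 11.75 to 11.80. The NK cell sums were almost all Gzma, whose log2 sample signals ran from 16.18 to 17.68. Those of Klrb1c, Eomes and Prf1 ran from 6.74 to 9.16. The B cell sums were mostly Cd79b (13.69 to 14.21). Among mast cell and basophil markers 1 of 5 was called lower (Cpa3, sums 9.94 to 10.25 and 9.99 to 10.08), among erythroid markers 1 of 3 (Hba-a1, sums 9.62 to 10.24 and 9.21 to 9.30). Among stromal and endothelial markers 1 of 5 was called higher (Pdgfrb, sums 11.77 to 11.97 and 12.01 to 12.06). Ncr1, S100a8, Fcer1a and, on 2 of its 3 probes, Klra8 were well above background on no array. The part of these marker differences in the results below was not tested.

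The HIF subunits gave no common direction. Hif1a, the alpha subunit of HIF-1, read 1.11, 0.95, 2.01 and 1.11 on wild-type arrays 1 to 4 and 2.58, 1.17 and 1.35 on knockout arrays 1 to 3. The groups overlapped, with wild-type array 3 and knockout array 1 high, and the difference of 0.41 had a 95% interval of -0.38 to 1.20 (adjusted p = 0.612). It was -0.03 without knockout array 1, 0.65 without wild-type array 3 and 0.67 without knockout array 2, none of them called. Within slide 1 it was 1.48 and within slide 2 0.16, and with slides blocked 0.72 (adjusted p = 0.578).

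Epas1, the alpha subunit of HIF-2, read 4.59, 5.08, 4.79 and 4.76 in the wild type and 4.64, 4.71 and 5.49 in the knockout. Only knockout array 3 lay above the wild-type range, and the difference was 0.14 (95% interval -0.32 to 0.59, adjusted p = 0.792), or -0.13 without that array. Its other tested probes stood at -0.07 and -0.40 and were not called. For neither alpha subunit do these intervals show equal levels.

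Hif3a, whose product includes forms that limit HIF, fell from 0.81, 0.87, 1.39 and 1.30 in the wild type to 0.44, 0.44 and 0.21 in the knockout. The groups did not overlap (1.66-fold, difference -0.73 ± 0.15 SE, adjusted p = 0.0192). The probes disagreed, since the other 2 stood at 0.01 and -0.22, neither called, and the mean over probes differed by -0.31. With slides blocked the adjusted p was 0.19, and the call was also lost without wild-type array 4, knockout array 2 or knockout array 3 (0.0581, 0.0508 and 0.0566). It was lost too with the replicate number as a block (0.11) and with wild-type array 4 and knockout array 3 both left out (0.127).

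Arnt, the partner of all alpha subunits, read 0.99, 0.82, 1.07 and 1.01 in the wild type and 0.64, 0.66 and 0.18 in the knockout. The groups did not overlap, yet the difference of -0.48 just missed the threshold (95% interval -0.76 to -0.19, adjusted p = 0.0524). A second probe stood at -0.44 (adjusted p over probes 0.077), and without knockout array 1 Arnt was called (-0.55, adjusted p = 0.0496).

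**Figure D1:**
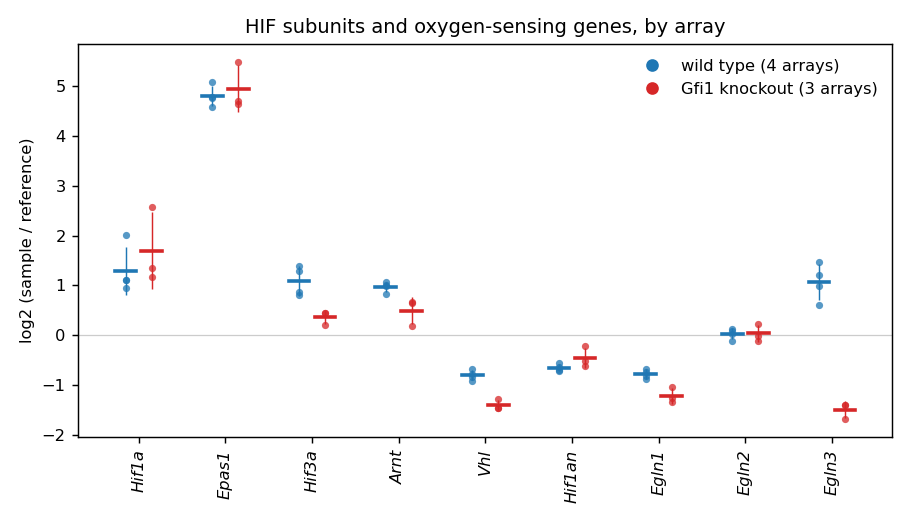
Log2 ratio of sample over reference (y axis) of the 9 HIF subunit and oxygen-sensing genes (x axis), with wild-type arrays in blue (n = 4) and Gfi1 knockout arrays in red (n = 3). Points are arrays, horizontal bars group means and vertical lines 1 SD; Egln3 shows the wide gap between groups, from 1.07 to -1.49, while Hif1a, Epas1, Hif1an and Egln2 overlap. Heights of different genes are not comparable.

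The genes that restrain HIF fell in 3 of 5 cases. Egln3, the prolyl hydroxylase most readily induced by hypoxia, read 0.61, 1.48, 1.21 and 0.98 in the wild type. On the knockout arrays it read -1.39, -1.40 and -1.68. The gap between the groups was wider than the range within either, and the fall of 5.91-fold (difference -2.56 ± 0.18 SE, adjusted p = 8.30e-05) was the largest among the members. A second probe gave -2.49. Compared on slide 1 alone Egln3 differed by -2.38, and on slide 2 alone by -2.15.

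Egln1, the main prolyl hydroxylase in most tissues, read -0.82, -0.73, -0.67 and -0.88 against -1.03, -1.26 and -1.34, a fall of 1.35-fold without overlap (adjusted p = 0.028). The call was lost without wild-type arrays 1, 2 or 3 (adjusted p = 0.0562, 0.0773 and 0.0746), without knockout arrays 2 or 3 (0.0968 and 0.0836), with slide as a block (0.302) and in the sample channel alone (0.104). Egln1 also lost its call with the replicate number as a block (0.0986) and with wild-type array 4 and knockout array 3 both left out (0.108). In the scanner's own log ratio its difference was -0.88 but was not called (0.0818). Egln2, the remaining prolyl hydroxylase, read 0.03, -0.11, 0.13 and 0.09 against -0.11, -0.01 and 0.23. These groups overlapped throughout, and the 95% interval of the difference was -0.23 to 0.23 around 0.00. Egln1, Egln2 and Egln3 thus had differences of -0.43, 0.00 and -2.56, and the intervals of Egln3 (-2.98 to -2.15) and Egln1 (-0.65 to -0.21) did not meet. Egln1 was dim, with log2 sample signals from 6.48 to 7.37, where those of Egln3 ran from 10.16 to 13.61. The offset draws dim probes towards 0. With an offset of 10 Egln1 differed by -0.61 and Egln3 by -2.60, and in the scanner's log ratio Egln3 differed by -2.54. How far apart these falls lie thus depends on the offset. The differences between these genes were not tested.

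Vhl, the substrate receptor of the HIF ubiquitin ligase, fell from -0.92, -0.78, -0.68 and -0.84 to -1.28, -1.46 and -1.45. The groups were apart (1.50-fold, adjusted p = 0.00426). With slides blocked the difference was -0.49 in place of -0.59 and was not called (adjusted p = 0.0688). Hif1an, the asparagine hydroxylase, read -0.63, -0.72, -0.70 and -0.56 against -0.52, -0.22 and -0.61 and was not called (0.20, 95% interval -0.03 to 0.44). None of 15 further genes of HIF turnover and coactivation, such as the VHL complex partners and the coactivators, was called, and their median difference was -0.01. At an unadjusted p under 0.05 limma had 2 of these higher and 2 lower.

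All 4 secreted or signalling targets fell. Vegfa, the growth factor that drives vessel growth, read -1.22, -0.68, -0.87 and -1.13 in the wild type and -2.53, -2.58 and -2.75 in the knockout. Each knockout array lay well below the lowest wild-type array, a fall of 3.13-fold (difference -1.65 ± 0.13 SE, adjusted p = 1.59e-04), and a second probe gave -1.44. Ankrd37, an ankyrin repeat gene induced by HIF-1, read -0.39, 0.28, 0.35 and 0.19 against -1.65, -1.63 and -1.48. Wild-type array 1 was the lowest of its group and still stood above every knockout array (3.23-fold, adjusted p = 4.29e-04).

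Stc2, a secreted stanniocalcin, went from 0.50, 0.73, 0.48 and 0.55 to -0.35, -0.52 and -0.17, a fall of 1.88-fold (adjusted p = 9.93e-04). The groups were clearly apart. Adm, which encodes the vasodilator peptide adrenomedullin, read -3.59, -2.94, -3.13 and -3.36 against -4.05, -3.69 and -4.01. Its groups nearly met, the fall was 1.58-fold (adjusted p = 0.0351), and the call was lost without wild-type array 2, 3 or 4 (0.0785, 0.0878 and 0.0696), without knockout array 1 or 3 (0.0916 and 0.0919), and under median centring (0.0669), the sample channel alone (0.0505) or slide as a block (0.316). Leaving out wild-type array 4 and knockout array 3 together ended the Adm call too (0.142).

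Enzymes that oxidise proteins and modify collagen fell in 5 of 7 cases, with a group median of -0.96. Ero1a, the oxidase that drives disulfide bond formation in the endoplasmic reticulum, read 1.28, 1.75, 1.91 and 1.48 in the wild type and -0.56, -0.93 and -1.08 in the knockout. The wide gap corresponds to 5.53-fold (difference -2.47 ± 0.17 SE, adjusted p = 6.60e-05). On slides 1 and 2 taken singly it differed by -2.05 and -2.29.

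Loxl2, a secreted lysyl oxidase that crosslinks collagen, read 2.22, 2.64, 1.38 and 1.96 in the wild type and -0.24, -0.25 and 0.22 in the knockout. Wild-type array 3 was the lowest of its group and the groups stayed apart (4.40-fold, adjusted p = 0.00132). Its other probes gave smaller falls of -1.46 and -1.08, both called. Lox, the founding lysyl oxidase, was not called, and the difference between both genes was not tested. It read -3.08, -2.92, -3.12 and -3.26 against -3.38, -3.24 and -2.98, the groups overlapped, and the 95% interval of the difference was -0.36 to 0.16. Lox was dim, with log2 sample signals from 6.31 to 6.71, where those of Loxl2 ran from 10.79 to 13.71. The offset draws dim probes towards 0, so the interval of Lox does not show an equal level.

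Both collagen prolyl 4-hydroxylase alpha subunits fell. P4ha2 read -1.70, -1.29, -1.72 and -1.61 in the wild type against -3.13, -3.11 and -3.50 in the knockout (3.17-fold, adjusted p = 1.59e-04). P4ha1 read -2.38, -2.01, -2.23 and -2.09 against -2.61, -2.88 and -2.69 (1.46-fold, adjusted p = 0.0168). Both were without overlap, and the 95% intervals were -1.97 to -1.36 for P4ha2 and -0.80 to -0.30 for P4ha1. The difference between these genes, read on different probes, was not tested. A second P4ha1 probe stood at -0.36 (adjusted p over probes 0.0481), and the P4ha1 call was lost without wild-type array 4 or knockout array 2 (adjusted p = 0.0552 and 0.0665) and with slide as a block (0.168). The replicate number as a block (0.119), and leaving out wild-type array 4 and knockout array 3 together (0.087), ended this call too.

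Of the lysyl hydroxylases Plod2 was called and Plod1 was not, and the difference between them was not tested. Plod2, which makes the lysyl modification of telopeptide crosslinks, read 0.52, 0.92, 0.82 and 0.48 in the wild type. It stood at -0.33, -0.27 and -0.21 in the knockout, a close cluster below all wild-type arrays (1.94-fold, adjusted p = 0.00152). Plod1 had a difference of -0.20 and was not called (95% interval -0.39 to -0.02, adjusted p = 0.215), and its second probe stood at 0.03.

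**Figure D2:**
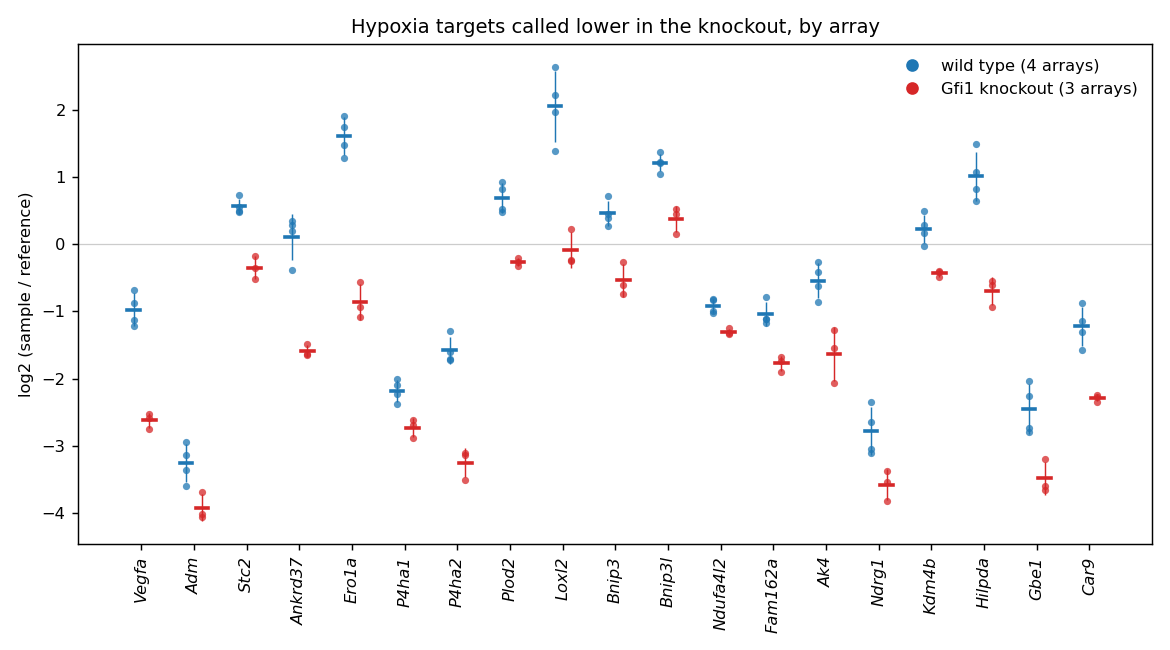
Log2 ratio of sample over reference (y axis) of the 19 hypoxia targets called lower (x axis), wild-type arrays in blue (n = 4) and knockout arrays in red (n = 3). Points are arrays, horizontal bars means and vertical lines 1 SD; in every gene shown the 3 knockout arrays lie below the 4 wild-type arrays, by the most in Ero1a (means 1.61 and -0.86) and by little in Adm and Ndufa4l2. Heights of different genes are not comparable.

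Among mitochondrial targets 5 of 6 fell, by modest amounts. Bnip3 and Bnip3l, receptors that mark mitochondria for autophagy, fell together. Bnip3 read 0.39, 0.72, 0.45 and 0.27 against -0.26, -0.61 and -0.74 (1.99-fold, adjusted p = 0.00288), and its 2 other probes were called lower too, the smaller difference being -0.64. Bnip3l read 1.05, 1.37, 1.23 and 1.21 against 0.52, 0.45 and 0.15 (1.79-fold, adjusted p = 0.0024). Neither gene's groups overlapped. The other Bnip3l probes gave -0.81, -0.48 and -0.72, of which the -0.48 was not called. The reference channel of Bnip3 differed by 0.24, and in the sample channel alone the fall was 1.69-fold and not called (adjusted p = 0.0838), nor was it with slide as a block (0.0558).

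Ak4, a mitochondrial adenylate kinase, read -0.42, -0.26, -0.62 and -0.86 in the wild type and -1.28, -1.55 and -2.07 in the knockout. Knockout array 3 was the lowest, and the fall was 2.13-fold without overlap (adjusted p = 0.00944). The other Ak4 probe stood at -0.32 and was not called, so that the mean over probes was -0.71, and slide as a block ended the call (adjusted p = 0.161). Fam162a, a HIF-induced mitochondrial protein linked to cell death, read -1.17, -0.78, -1.11 and -1.11 against -1.74, -1.68 and -1.90 (1.66-fold, adjusted p = 0.00419). Its groups were apart, the reference channel differed by 0.21, and the call was lost under median centring (0.0568) and with slide as a block (0.0872).

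Ndufa4l2, which encodes a relative of a respiratory complex IV subunit, had the smallest difference of the called mitochondrial targets at the offset used. It went from -1.02, -0.83, -0.82 and -1.00 to -1.25, -1.33 and -1.32. Ndufa4l2 was dim, with log2 sample signals from 6.45 to 7.07. The offset draws dim probes towards 0, so its rank depends on the processing. The groups were narrow and apart (1.30-fold, adjusted p = 0.0249), and in the scanner's own log ratio the difference was larger, at -0.81 (adjusted p = 0.0315). The call was lost without wild-type array 2 or 3 (0.0703 and 0.0682), without knockout array 2 or 3 (0.0835 and 0.0639), in the sample channel alone (0.0715) and with slide as a block (0.294). Ndufa4l2 also lost its call with the replicate number as a block and with wild-type array 4 and knockout array 3 both left out. Higd1a, a respiratory chain assembly factor, had a difference of -0.35 and was not called (adjusted p = 0.129), although its knockout arrays touched the wild-type range from below.

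Of 5 targets with roles in growth, feedback and stress, 1 fell. Ndrg1, a stress-induced gene that restrains growth, read -3.04, -2.34, -2.64 and -3.10 against -3.82, -3.53 and -3.37 (1.73-fold, adjusted p = 0.0337). The groups did not overlap, but the call was lost without wild-type array 2 or 3 (adjusted p = 0.06 and 0.0844), without knockout array 1 or 2 (0.0918 and 0.0858), in the scanner's log ratio (0.0882), under median centring (0.157), in the sample channel alone (0.116) and with slide as a block (0.142).

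Ddit4, an inhibitor of mTORC1 also known as REDD1, read 1.63, 2.06, 2.12 and 1.57 in the wild type and 1.53, 1.38 and 0.35 in the knockout. Knockout array 3 alone was far below the rest, the difference of -0.76 was not called (adjusted p = 0.144), and it was -0.39 without that array and -0.46 with slides blocked. Cited2, which competes with HIF for its coactivators, had the same low array: its difference was -0.36 (adjusted p = 0.53), or 0.02 without knockout array 3 and -0.65 without knockout array 1. Mxi1, a MYC antagonist, and Narf, a nuclear prelamin-binding protein, differed by -0.30 and -0.06 and were not called, except that Mxi1 was called without wild-type array 2 (-0.40, adjusted p = 0.0303). Mxi1 stood at -0.92 in the scanner's log ratio and in the series table, at -0.54 with an offset of 10 and at -0.47 under median centring, and was called in none of these (adjusted p = 0.223, 0.222, 0.125 and 0.0693).

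Of the 3 histone demethylases, which themselves need oxygen, Kdm4b fell. It read -0.02, 0.28, 0.49 and 0.16 in the wild type and -0.49, -0.41 and -0.40 in the knockout (1.58-fold, adjusted p = 0.00911). The groups were apart, and with slide as a block the call was lost (adjusted p = 0.119). Kdm3a and Kdm4c differed by -0.28 and -0.07 and were not called (adjusted p = 0.14 and 0.912).

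Genes of lipid and glycogen storage fell in both tested cases. Hilpda, which blocks the lipase of lipid droplets, read 0.65, 1.49, 1.07 and 0.82 against -0.60, -0.54 and -0.93. All knockout arrays were far below (3.26-fold, adjusted p = 8.08e-04), and a second probe gave -1.76. Gbe1, the glycogen branching enzyme, read -2.79, -2.03, -2.25 and -2.74 against -3.20, -3.59 and -3.65 (2.04-fold, adjusted p = 0.0129). Its groups were apart, but with slides blocked the difference was -0.67 and was not called (adjusted p = 0.0604). The Gbe1 call was also lost without knockout array 2 (0.054) and with the replicate number as a block.

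Of the carbonic anhydrases, membrane enzymes that control pH at the cell surface, Car9 was called and Car12 was not, and the difference between them was not tested. Car9, a classical HIF-1 target, read -1.57, -0.88, -1.14 and -1.30 in the wild type. In the knockout it stood at -2.27, -2.24 and -2.34, a tight group below all others (2.08-fold, adjusted p = 0.00245). Car12 read 0.57, 0.54, -0.53 and -0.20 against 0.34, 0.30 and 0.18, with the knockout inside the wild-type range, and was not called (0.18, 95% interval -0.39 to 0.74).

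**Figure D3:**
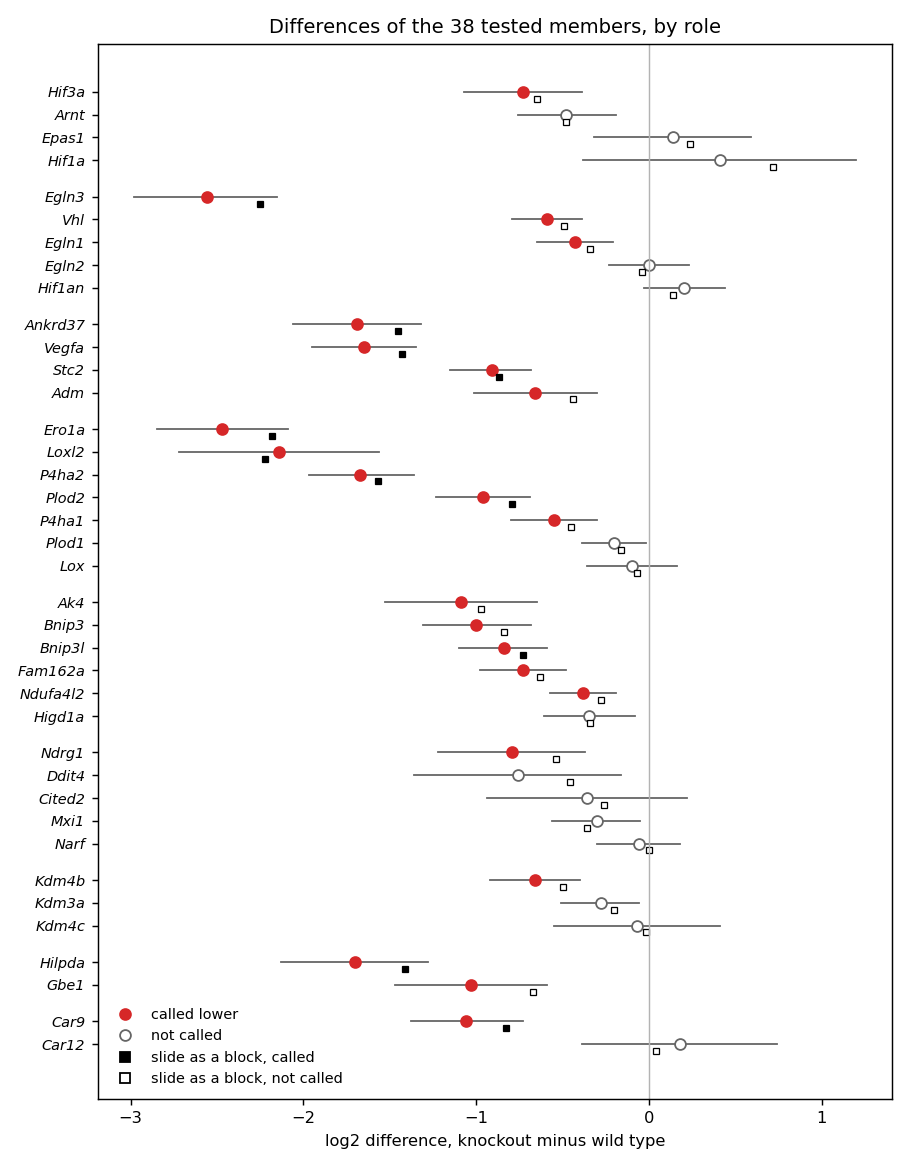
Log2 difference, knockout minus wild type (x axis), of the 38 tested members (y axis, grouped by role) as circles with 95% intervals, filled where called lower. Squares give the difference with slide as a fixed block, filled where called; 23 circles and 11 squares are filled, and Egln3, Ero1a and Loxl2 lie farthest to the left.

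Of the 23 called members, 9 had further tested probes, 14 in all. Of these probes 10 were called lower over all tested probes, 4 were not called (2 of Hif3a and 1 each of Bnip3l and Ak4) and 0 were called higher. The reference channel of a member differed between groups by at most 0.24, and by more than 0.2 in 3 members (Bnip3, Fam162a and Ddit4, the last at 0.23).

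Among 33 further tested hypoxia targets outside glycolysis, 6 fell and 1 rose, with a median difference of -0.13. Tmem45a, a membrane protein gene, fell 4.16-fold (adjusted p = 9.57e-05), from values of -0.28, -0.02, 0.33 and -0.15 to -2.01, -2.32 and -1.93. No knockout array came near the wild-type range. Maff, a small MAF factor, Bhlhe40, a transcriptional repressor, and Kdm5b, a histone demethylase, fell 2.15-fold, 1.86-fold and 1.60-fold. Named after their values were seen, Plin2, a lipid droplet coat protein (-0.66), and Anxa2 (-0.61) were the other falls, and Nt5e, the ectoenzyme CD73 that makes adenosine, was the rise (0.69, adjusted p = 0.0288). For Anxa2 the sample channel differed by -0.26 and the reference channel by 0.35. Among 22 glycolytic HIF targets 14 fell and 0 rose (0 also at an unadjusted p under 0.05), with a median of -0.69. Some of these falls in the ratio came with a shift of the reference channel. It differed by 0.70 for Aldoa, 0.63 for Pgk1 and 0.55 for Gapdh, where the sample channel differed by -0.27, -0.08 and -0.22. For Slc2a3 the reference channel differed by -0.56 and the sample channel by -1.92. Other falls came without such a shift. For Slc2a1, Pfkfb3 and Pdk1 the reference channel differed by 0.08, -0.03 and 0.00 and the sample channel by -1.19, -0.92 and -1.00. The difference between these lists was not tested.

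**Figure D4:**
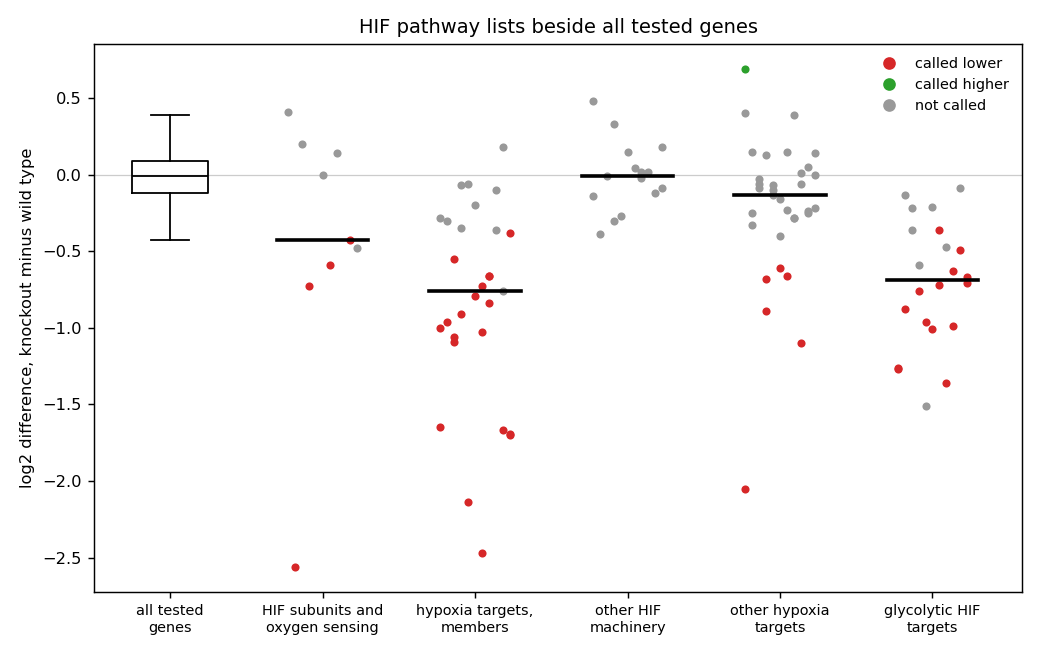
Log2 difference, knockout minus wild type (y axis), of single genes (points) in lists of the HIF pathway (x axis), red where called lower, green where called higher and grey where not called, with the list median as a line. The box at the left gives the median, quartiles and, as whiskers, the range between the outer percentiles of all tested genes (the lowest and highest 5% left out); the medians are -0.43 for the 9 regulators, -0.76 for the 29 targets, -0.01 for other HIF machinery, -0.13 for other hypoxia targets and -0.69 for glycolytic targets.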

How the data were processed

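Per the file headers, the deposited scanner files hold intensity values per spot and channel and a log10 ratio of red over green, background-subtracted and dye-normalized, from Agilent Feature Extraction 11.0.1.1 (10.7.3.1 per the submitters' processing notes). The deposited series table holds log2 ratios equal to these within 0.001, with column medians from 0.163 to 0.254. Flags such as well above background are other values that the authors deposited with the files.

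Median signals were corrected with normexp (offset 50) and normalized by loess within arrays (control spots at weight 0) in limma 3.58.1 under R 4.3.3. Spots flagged as outliers or with an uneven background were left out first. Spots of a probe were averaged. Accessions named 26575 of 39429 probes through RefSeq (GRCm38.p6). Genes were tested where at least 3 arrays were well above background and each group had 2 values, by the brightest probe, with lmFit, eBayes and Benjamini-Hochberg adjustment over 25370 genes at 0.05. The fit was tested on simulated data with the spreads of the tested genes. It recovered 91% of log2 changes of 1 and 35% of log2 changes of 0.5, and 3.82% of its calls were false. A fold is the antilog of the log2 difference, and the offset draws dim probes towards 0. The number of arrays, 4 and 3, limits the precision, and p-values measure the spread between these pools of mice. Array coordinates (build mm9) were not used. Some marker results are not reported here.

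Members and lists were chosen with earlier results of these data known. Values on every array are given for called members and all regulators. Other pathway genes were to be named only among the 4 called genes with the smallest p of their list. Plin2, Anxa2, Nt5e, Aldoa, Pgk1 and Gapdh are further called genes named after their values were seen. Figures used matplotlib 3.10.9. Alternatives covered background, normalization, channel, filters, probes, flags, variance model, slide, replicate number and arrays left out.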

Additional observations from a re-analysis of the deposited data

Results flagged for a closer look

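In 2 of the 38 tested members 1 of the 4 wild-type arrays stood far from the other 3, by a gap above Dixon's 95% critical value of 0.829 of the group's range. Chance flags about 1 in 20 such groups. Hif1a read 2.01 on wild-type array 3, where the other wild-type arrays read 0.95 to 1.11 (gap 0.856 of the range). Fam162a read -0.78 on wild-type array 2, where the others read -1.17 to -1.11 (gap 0.840 of the range). The Fam162a call did not depend on that array, and Hif1a was not called with or without array 3.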

How the results depend on the processing

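Of the 23 called members, 11 were called under each of 22 alternatives, which were not all independent, and all 23 kept their sign throughout. Where arrays were only left out, these signs were fixed in advance, since the groups of the called members did not overlap. Blocking on slide left 233 genes higher and 245 lower, 11 members lower and a median difference of the members of -0.49. With the replicate block 487 and 596 genes were called, and 18 members. Arrays of the same number shared only a number: their deviations correlated at 0.04, 0.24 and 0.02, and 2 of 6 arrays correlated best with their own number. Omitting wild-type array 4 together with knockout array 3 gave 484 and 654 genes, and 18 members. Leaving out each array in turn gave 528 to 881 genes higher (528 without wild-type array 4, 530 without knockout array 2), 735 to 1016 lower, 17 to 22 members lower and a median of -0.76 to -0.59. The sample channel alone kept 18 member calls, median centring 20 and 21 were kept by the scanner's log ratio and by the series table. In no alternative was a member called higher. Signs turned only in 7 members that were not called. Over the arrays left out in turn, Hif1a ranged from -0.03 (without knockout array 1) to 0.67, Epas1 from -0.13 (knockout array 3) to 0.29, Egln2 from -0.10 (knockout array 3) to 0.08, Cited2 from -0.65 to 0.02 (knockout array 3), Narf from -0.11 to 0.04 (knockout array 1), Kdm4c from -0.33 to 0.20 (knockout array 2) and Car12 from -0.03 (wild-type array 3) to 0.34. Egln2 also stood at -0.06 in the sample channel alone, -0.04 with the slide block and -0.08 with both arrays omitted. Epas1 stood at -0.11 as a mean of probes and -0.15 with both arrays omitted, and Kdm4c at 0.00 under median centring. The cause was not tested. With 4 and 3 arrays, small differences can be missed.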
